A study of Mus musculus with 8 samples.

Results

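H/ACA small nucleolar RNAs (Snora symbols) and small Cajal body RNAs (Scarna symbols) were examined in small RNA from mouse sperm, in 4 ethanol libraries and 4 control libraries. The members were every exon row of the deposited count table whose gene symbol begins with Snora or Scarna and a digit, which gave 45 RNAs, 36 Snora and 9 Scarna, each with 1 row, among 45082 features of the whole table. The ethanol samples were taken after alcohol exposure had ended, 1 month earlier per the series title, and the control samples carry no other label than control. Strain, age, dose and the route of exposure are not given in the sources used here. Sperm RNA was extracted with Trizol and made into libraries with Qiaseq reagents, per the labels' protocols.

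H/ACA RNAs fold into 2 hairpins joined by a hinge that holds the H box, and end in an ACA box just before the 3′ end. Each pairs with a target RNA and brings the pseudouridine synthase dyskerin, with Nop10, Nhp2 and Gar1, to a uridine of ribosomal RNA. Cajal body RNAs do the same, or guide 2′-O-methylation, on spliceosomal RNAs, and several are of the C/D type or a mixture of both types. In mammals most H/ACA RNAs are cut out of introns of host genes, many of which encode ribosomal proteins or other parts of the translation machinery, so a host yields an exonic mRNA and an intronic guide RNA. Mature sperm are largely silent in transcription and translation, and their RNA is known to include material from earlier germ cells and from the epididymis.

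The sequences of the 5 Snora RNAs that fell in ethanol sperm, of the most abundant RNA of the class (Snora81) and of the Cajal body RNA with the largest positive value (Scarna2) are those of GENCODE M21 transcripts on build GRCm38. Snora21 lies at chr11:97781639-97781775 on the minus strand, Snora64 at chr17:24720772-24720905 on the plus strand, Snora65 at chr2:32963291-32963420 on the plus strand, Snora70 at chrX:74272484-74272620 on the plus strand and Snora7a at chr6:115807975-115808114 on the minus strand. Snora81 lies at chr16:23110756-23110933 on the plus strand and the last 120 bases of Scarna2 at chr3:108554338-108554457 on the minus strand. In the Snora sequences, capitals mark the letters ANANNA (N is any base) starting at bases 55 to 75, where the H box is expected, and the letters ACA exactly 3 bases before the end; in Scarna2 they mark the stretch that the RefSeq model of this RNA covers.
Snora21: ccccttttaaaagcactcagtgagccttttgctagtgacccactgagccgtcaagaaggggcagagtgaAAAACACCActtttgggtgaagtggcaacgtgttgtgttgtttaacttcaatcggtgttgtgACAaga
Snora64: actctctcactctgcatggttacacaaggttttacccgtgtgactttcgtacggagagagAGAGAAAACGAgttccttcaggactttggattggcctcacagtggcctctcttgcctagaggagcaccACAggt
Snora65: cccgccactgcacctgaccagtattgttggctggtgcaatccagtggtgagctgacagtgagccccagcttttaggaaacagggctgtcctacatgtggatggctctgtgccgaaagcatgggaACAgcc
Snora70: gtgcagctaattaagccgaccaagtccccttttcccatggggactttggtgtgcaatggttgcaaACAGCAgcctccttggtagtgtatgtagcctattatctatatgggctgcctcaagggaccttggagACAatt
Snora7a: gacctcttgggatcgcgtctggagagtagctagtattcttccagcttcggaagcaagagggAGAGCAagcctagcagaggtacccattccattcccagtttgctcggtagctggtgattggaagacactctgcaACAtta
Snora81: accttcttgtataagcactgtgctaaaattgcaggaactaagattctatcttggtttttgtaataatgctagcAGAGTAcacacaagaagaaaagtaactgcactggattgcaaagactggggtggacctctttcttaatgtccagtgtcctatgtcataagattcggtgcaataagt
Scarna2: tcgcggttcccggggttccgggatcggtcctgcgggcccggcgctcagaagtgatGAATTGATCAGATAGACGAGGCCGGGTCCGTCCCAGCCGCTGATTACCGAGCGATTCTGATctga

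All 5 fallen Snora RNAs printed above end in ACA and 3 further bases, and 4 of them hold ANANNA in the window, Snora65 being without it. Only the RNA strand was searched, and matches within one stretch may overlap, as they do in Snora21 and Snora64. Over the class, 30 of 36 Snora RNAs (83.3%) had ACA at that place, against 2.41% of the last 130 bases of 9087 lincRNA transcripts and 0 of 98 Snord transcripts. ANANNA in the window was present in 30 of 36 Snora RNAs, against 36.1% of the lincRNA windows and 8 of 98 Snord transcripts, so those letters alone are common. Snord transcripts were searched at the same base positions and were not matched to the Snora RNAs in length. Of the 9 Scarna RNAs 2 had the terminal ACA. The 36 Snora transcripts measured 121 to 205 bases with a median of 132.5. Scarna2 covers 414 bases in GENCODE and 61 in RefSeq, and Scarna10, Snora20 and Snora61 are also below 50% of their GENCODE length in RefSeq. The deposited rows do not say which model was counted, so a count for these 4 may stand for part of the RNA.

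Library totals ran from 3481865 to 6975180 deposited counts, and 13515 features passed the filter on low counts and were tested with edgeR's quasi-likelihood test. The labels do not say whether the samples came from separate animals, so p-values measure the spread between these samples, which may be technical. Values per library are in CPM, counts put on a common library size with TMM factors. The label was checked against gene lists. The 12 sperm and spermatid genes, such as the protamine genes Prm1 and Prm2, summed to 388, 223, 606 and 461 CPM in ethanol replicates 1 to 4, against 649, 555, 695 and 729 CPM in controls. None of these 12 passed the test. Epididymal epithelium genes, led by the secreted protein gene Crisp1, summed to 2568, 11610, 901 and 1305 CPM in ethanol libraries, against 407, 507, 583 and 692 CPM in controls, and 6 of the 7 tested rose. None of the 12 listed epididymal genes was at 0 in every library, but 4 were at 0 in at least 1 library. Crisp1 alone gave 2374, 9631, 770 and 1138 CPM of these sums in ethanol libraries, against 347, 447, 522 and 635 CPM in controls. Blood and immune genes summed to 8.11 to 32.7 CPM in ethanol libraries and 28.8 to 56.6 CPM in controls (2 of 5 tested fell), and stromal genes to 14.1 to 48.1 CPM and 34.8 to 62.8 CPM (0 of 4 called). The part of these genes, and of the cells they mark, in the results below was not tested.

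H/ACA and Cajal body RNAs made up a small part of the sperm small RNA in both groups. Their summed counts were 1201, 2790, 790 and 489 in ethanol replicates 1 to 4, against 1037, 2073, 1240 and 1158 in control replicates 1 to 4. This was 0.0293 ± 0.0341% of counts in ethanol libraries and 0.0304 ± 0.0116% in control libraries (SD, n = 4 each). By share of counts, ethanol replicate 2 held the most of any library and the other 3 ethanol libraries lay below all controls. On the CPM scale the sums were 176, 587, 149 and 84.6 in ethanol libraries, against 271, 536, 310 and 322 in controls. The groups thus overlapped through ethanol replicate 2, which was the highest ethanol library for 25 of the 29 tested RNAs, while ethanol replicate 4 was the lowest for 23. Control replicate 2 was the highest control for 25. Of the 45 RNAs, 35 had counts in all 8 libraries. The 16 that were not tested had at most 84 counts over all libraries and together 3.62% of the counts of the class.

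Of the 29 tested RNAs (25 Snora and 4 Scarna), 6 fell and 0 rose in ethanol sperm at an adjusted p under 0.05 by edgeR, where 1.75% of all tested features fell and 11.9% rose. The 6 were Snora21, Snora64, Snora65, Snora70, Snora7a and Scarna17. The median log2 fold change, ethanol over control, was -0.93 over the 29 RNAs and -0.01 over all features, and 24 of the 29 values were negative (20 of 29 with library totals as the scale, and 15 of 28 when snoRNAs were fitted alone). At an unadjusted p under 0.05 there were 14 of 29, where 33.0% of all features passed, and 3 of 29 had every ethanol library below every control, against 6.91% of all features. None had every ethanol library above every control, where 14.4% of all features did. The adjusted p-values of the 6 lay between 0.0287 and 0.0496. No RNA of the class passed when any single one of control replicates 1, 2, 3 or 4 was left out (3 to 10 calls then remained over all features). Without ethanol replicate 1 or without replicate 4, 2 fell, without replicate 3 there were 9 and without replicate 2 there were 21. Over all features, 409 of 14056 fell without ethanol replicate 1 and 85 of 14283 without replicate 4. Without replicate 3, 837 of 14825 features fell, and without replicate 2, 381 of 14384.

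Snora21, which in human guides pseudouridylation of the large ribosomal subunit RNA and lies in an intron of the ribosomal protein gene Rpl23, had 4.99, 4.84, 4.72 and 2.42 CPM in ethanol replicates 1 to 4, against 8.90, 20.7, 14.2 and 10.3 CPM in controls. Every ethanol library lay below every control. The log2 fold change was -1.67 ± 0.39 (SE, edgeR adjusted p = 0.0287), or 68.5% lower. Scarna17, a C/D type Cajal body RNA that guides methylation of spliceosomal RNAs in human, had 2.64, 2.31, 3.77 and 3.29 CPM in ethanol libraries, against 9.16, 8.53, 10.5 and 6.12 CPM in controls. These groups did not overlap either, and ethanol replicate 2, high for most of the class, was the lowest library here (-1.51 ± 0.35, edgeR adjusted p = 0.0287). Snora7a, in an intron of Rpl32, had 2.64, 3.58, 1.89 and 1.38 CPM in ethanol libraries, against 6.02, 6.98, 4.24 and 5.01 CPM in controls. The groups did not overlap on the CPM scale (-1.23 ± 0.39, edgeR adjusted p = 0.0487). The values rested on 53 counts in all ethanol libraries and 85 in all controls. Counts per library overlapped, at 18, 17, 10 and 8 in ethanol libraries, against 23, 27, 17 and 18 in controls. The separation of Snora7a thus depends on how the libraries were scaled.

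Snora70, a guide for the small ribosomal subunit RNA in human and located in an intron of the X-linked gene Rpl10, had 1.76, 11.2, 3.77 and 3.29 CPM in ethanol libraries, against 13.6, 16.5, 10.98 and 14.5 CPM in controls. Ethanol replicate 2 reached just above the lowest control and the other 3 ethanol libraries were far below (-1.49 ± 0.48, edgeR adjusted p = 0.0496). Snora64, in an intron of Rps2, had 1.91, 6.73, 3.58 and 0.692 CPM in ethanol libraries, against 5.76, 13.2, 9.99 and 11.7 CPM in controls. Again only ethanol replicate 2 entered the control range, above control replicate 1 (-1.67 ± 0.52, edgeR adjusted p = 0.0473). Snora65, in an intron of Rpl12, had 0.147, 3.37, 1.51 and 0.692 CPM in ethanol libraries, against 2.88, 6.98, 4.74 and 5.84 CPM in controls. It had the lowest log2 fold change of the 29 tested RNAs (-1.90 ± 0.59, edgeR adjusted p = 0.0457) and the fewest counts of the 6, 29 in ethanol libraries and 78 in controls. For Snora64, Snora65 and Snora70 the overlap with the controls came from ethanol replicate 2 alone.

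**Figure D1:**
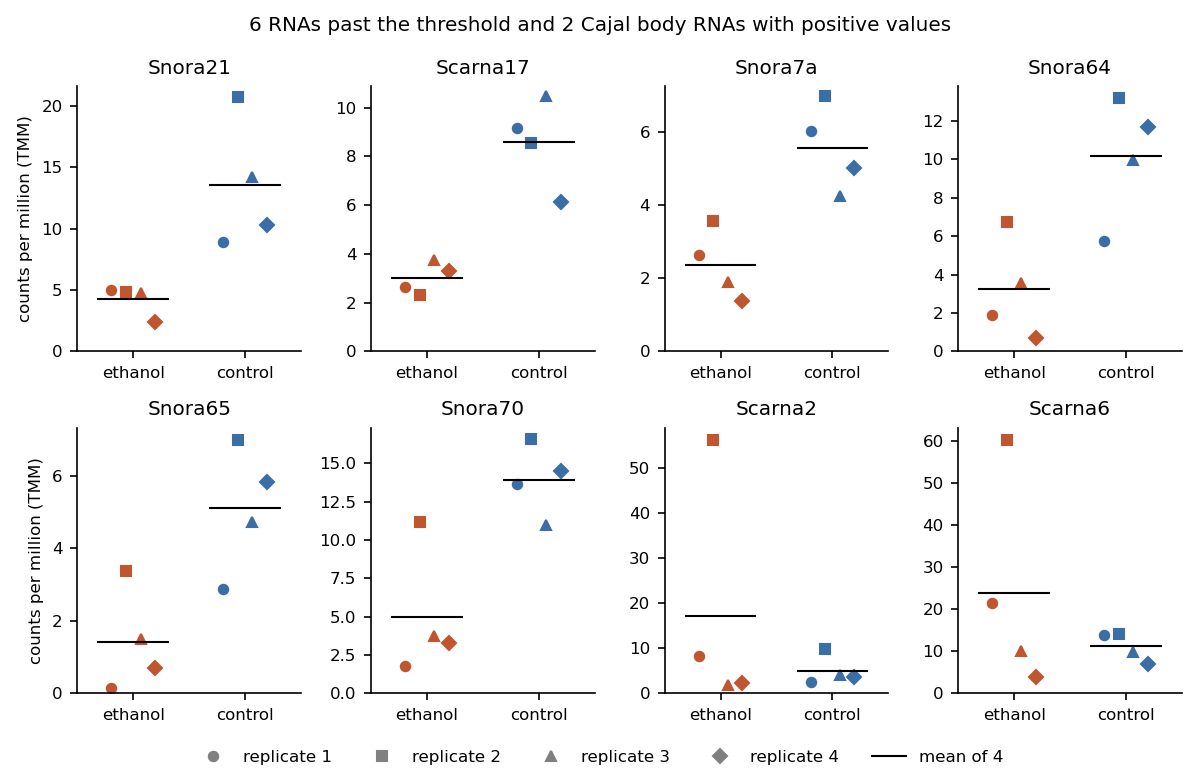
CPM (TMM scale, linear axes from 0) of the 6 RNAs past the threshold and of Scarna2 and Scarna6, with 1 point per library, ethanol left of control, and a line at the mean of 4. Snora21, Scarna17 and Snora7a have no overlap between the groups on this scale, and Scarna2 reaches 56.2 CPM in ethanol replicate 2.

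Cajal body RNAs held a larger part of the class in most ethanol libraries than in controls. The 9 Scarna RNAs made up 27.9%, 24.4%, 15.3% and 17.0% of the counts of the class in ethanol replicates 1 to 4, against 15.8%, 8.63%, 12.0% and 12.7% in controls. Only ethanol replicate 3, at 15.3%, lay below the highest control. Summed Snora CPM averaged 192 ± 170 in ethanol libraries and 318 ± 117 in controls (SD, n = 4 each). Summed Scarna CPM was 49.2, 143, 22.8 and 14.4 in ethanol replicates 1 to 4, against 42.9, 46.3, 37.2 and 40.9 in controls. Ethanol replicates 1 and 2 were above all controls and replicates 3 and 4 below all. The Scarna means were 57.4 ± 59.0 in ethanol libraries and 41.8 ± 3.80 in controls (SD, n = 4 each). The difference between the 2 classes was not tested. Of the 4 tested Scarna RNAs, Scarna17 fell and the other 3 did not pass.

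Scarna2, a C/D type guide for the U2 spliceosomal RNA in human that is transcribed from its own promoter there, had 8.37, 56.2, 1.89 and 2.25 CPM in ethanol libraries, against 2.62, 9.83, 3.99 and 3.62 CPM in controls. Ethanol replicate 2 exceeded every other library, and ethanol replicates 3 and 4 were below all controls. Its log2 fold change was 1.76 ± 0.96 (edgeR adjusted p = 0.222) and was -0.30 without ethanol replicate 2. Scarna6, a guide of mixed type in an intron of the autophagy gene Atg16l1, had 21.4, 60.2, 10.2 and 3.80 CPM in ethanol libraries, against 13.9, 14.2, 9.74 and 6.95 CPM in controls. Ethanol replicates 1 and 2 were above all controls and replicate 4 below all (1.09 ± 0.62, edgeR adjusted p = 0.229). When only ethanol replicates 1 and 2 were kept, whose sample codes share a prefix, both Scarna2 and Scarna6 rose. In that fit 2714 of 16179 features rose. With only ethanol replicates 3 and 4, which share another prefix, Scarna2 and Scarna6 had -1.28 and -0.74 on the log2 scale. Scarna9, a C/D type guide for U2 in human, lies in an intron of the centrosome gene Cep295 and had 13.2, 16.2, 6.04 and 3.80 CPM in ethanol libraries, against 14.7, 11.4, 10.98 and 19.7 CPM in controls (-0.53 ± 0.44, edgeR adjusted p = 0.404). The ethanol range enclosed 3 of its 4 controls, and control replicate 4 was above it.

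**Figure D2:**
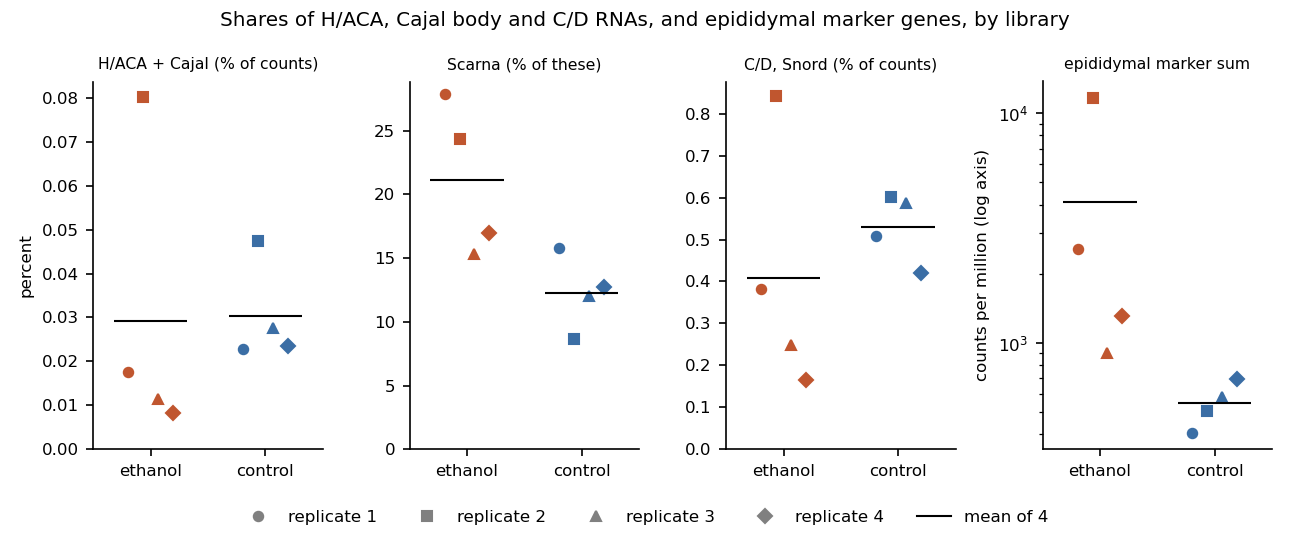
Percent of deposited counts in H/ACA and Cajal body RNAs, percent of those counts in Scarna RNAs, percent of deposited counts in C/D RNAs, and summed CPM of the epididymal marker list (log axis), with 1 point per library and a line at the mean of 4. Ethanol replicate 2 is the highest library in each panel but that of the Scarna share, where ethanol replicate 1 is.

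The most abundant RNAs of the class did not pass the test, and for each of the top 10 ethanol replicate 2 was the highest ethanol library. Snora81, whose host Eif4a2 encodes a translation initiation helicase, had 14.0, 73.4, 17.7 and 9.68 CPM in ethanol libraries, against 35.3, 50.4, 25.7 and 23.9 CPM in controls (-0.24 ± 0.56, edgeR adjusted p = 0.788). Ethanol replicates 1, 3 and 4 lay below all controls and replicate 2 above all. Snora74a showed the same arrangement, with 7.93, 55.1, 6.79 and 4.67 CPM in ethanol libraries, against 11.3, 33.9, 21.5 and 23.1 CPM in controls (-0.27 ± 0.66, edgeR adjusted p = 0.796). Snora16a, one of 3 RNAs here from the noncoding gene Snhg12, had 11.5, 42.7, 15.8 and 8.47 CPM in ethanol libraries, against 22.0, 42.2, 25.7 and 24.2 CPM in controls (-0.54 ± 0.48, edgeR adjusted p = 0.435). Here too only ethanol replicate 2 left the space below the controls. Snora20, in an intron of the chaperonin gene Tcp1, had 13.7, 40.8, 4.72 and 4.32 CPM in ethanol libraries, against 11.3, 30.3, 13.2 and 11.1 CPM in controls. Its value was -0.06 ± 0.62 and its sign changed under 8 alternatives. Without ethanol replicate 2, Snora81, Snora74a and Snora16a were among the 21 that fell, where 381 of 14384 features fell.

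Snora78, from the short noncoding gene Snhg9, had 6.46, 14.5, 12.8 and 8.13 CPM in ethanol libraries, against 12.3, 31.3, 21.2 and 18.9 CPM in controls. Ethanol replicates 2 and 3 exceeded only control replicate 1 (-1.001 ± 0.39, edgeR adjusted p = 0.0954). Snora24, a guide for the small ribosomal subunit RNA in human from the noncoding gene Snhg8, had 5.58, 13.9, 3.40 and 2.42 CPM in ethanol libraries, against 9.95, 25.9, 15.5 and 12.8 CPM in controls (-1.35 ± 0.50, edgeR adjusted p = 0.0813). Snora28, from the initiation factor gene Eif5, had 5.29, 14.7, 5.09 and 1.04 CPM in ethanol libraries, against 10.99, 28.4, 12.2 and 16.7 CPM in controls (-1.40 ± 0.57, edgeR adjusted p = 0.106). For both, ethanol replicate 2 alone entered the control range. The positive Snora values were small: 0.23 ± 0.61 for Snora44, 0.13 ± 1.02 for Snora61 and 0.08 ± 0.48 for Snora3, none past the test. Snora44 and Snora61, neighbours in Snhg12, each had their highest value in ethanol replicate 2, at 20.6 and 28.4 CPM, against at most 12.2 and 16.0 CPM in any control.

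**Figure D3:**
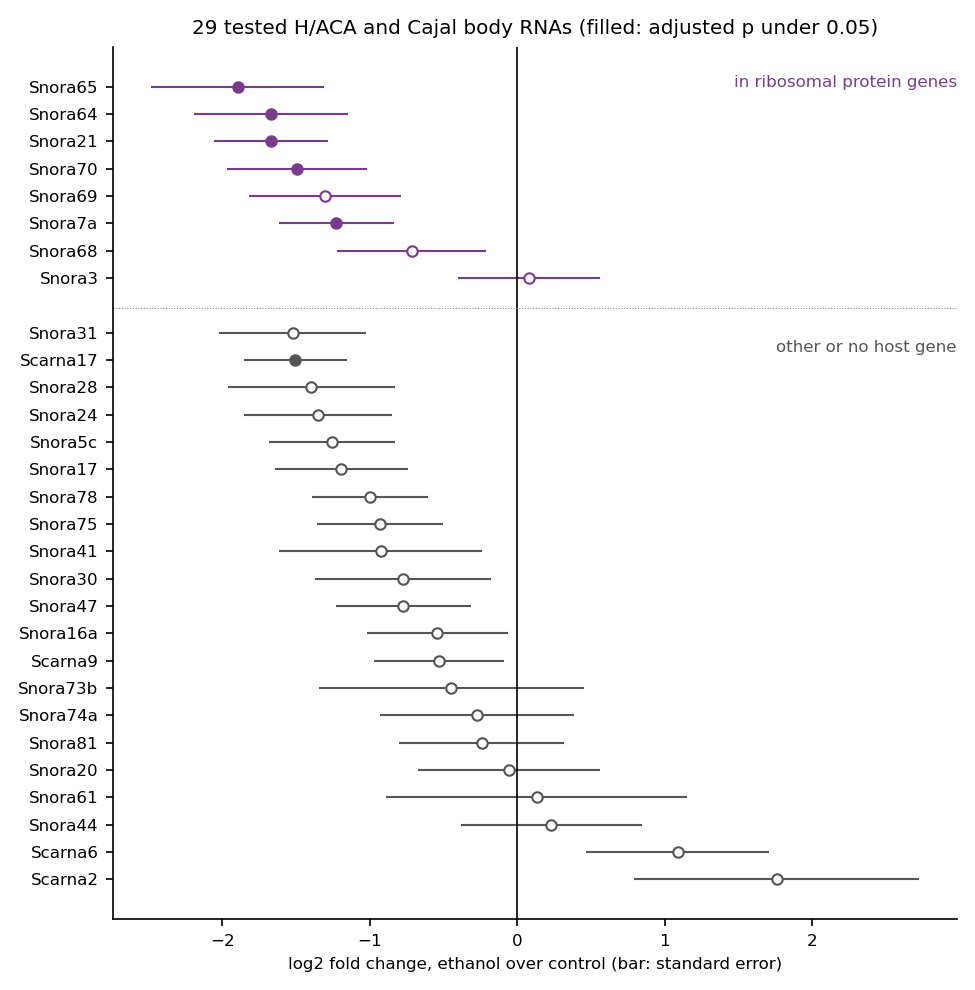
Log2 fold changes, ethanol over control, with standard errors for the 29 tested RNAs, divided by whether the host gene encodes a ribosomal protein; filled points have an edgeR adjusted p under 0.05. Of the 8 in ribosomal protein genes 5 are filled, and of the other 21 only Scarna17 is. Adjusted p-values of the filled points lay between 0.0287 and 0.0496.

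Host genes were read from GENCODE M21 as genes on the same strand that span the RNA, which gave a host for 41 of the 45 RNAs in 40 host genes. Sorting the RNAs by kind of host was done after their values were seen, so the following counts are a description. There were 11 ribosomal protein hosts, among them Rpl10, Rpl12, Rpl23, Rpl32, Rps2 and Rps12. Of the 8 tested RNAs in them 5 fell, with a median of -1.40 on the log2 scale. Those that did not pass included Snora69 in Rpl39 (-1.30 ± 0.52) and Snora3 in Rpl27a. Of the 21 other tested RNAs 1 fell, Scarna17, and their median was -0.77. Over all tested features 1.75% fell. Just short of the threshold lay Snora31 in Tpt1 and Snora5c in Tbrg4 (edgeR adjusted p = 0.0539 and 0.0597). The split moved with the setting. With the DESeq2 Wald test 11 RNAs fell, 5 of them in ribosomal protein genes. These numbers were 2 and 1 with DESeq2 size factors, 1 and 0 with library totals, and 21 and 7 without ethanol replicate 2. The 6 tested RNAs from noncoding Snhg genes had a median of -0.50 and none of them passed. The summed CPM of the RNAs in ribosomal protein genes was 22.6, 68.4, 29.2 and 15.4 in ethanol libraries, against 61.0, 112, 68.9 and 75.9 in controls, where ethanol replicate 2 overlapped only control replicate 1. Snora RNAs with any other or no host summed to 105, 376, 96.9 and 54.8 CPM in ethanol libraries, against 167, 378, 203 and 205 CPM in controls.

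The exons of the same ribosomal protein genes were higher in ethanol sperm. All 11 rose by edgeR, where 23.8% of tested mRNA exon features rose. Each of the 11 had every ethanol library above every control, as did 1877 of all 6537 tested mRNA exon features. The median log2 fold change of the 11 was 2.16. Rpl23 exons had 21.6, 72.6, 17.7 and 19.2 CPM in ethanol libraries, against 4.97, 6.21, 7.49 and 10.3 CPM in controls (2.17 ± 0.50, edgeR adjusted p = 0.0287), while Snora21 in its intron fell. Rpl10 exons had 69.0, 220, 38.9 and 60.4 CPM in ethanol libraries, against 19.1, 23.5, 18.7 and 25.3 CPM in controls (2.16 ± 0.52, edgeR adjusted p = 0.0287). The other fallen RNAs with a host showed the same pairing: exons of Rps2 (2.25 ± 0.51), Rpl12 (2.14 ± 0.56) and Rpl32 (2.04 ± 0.57) all rose. Summed over the 11 genes, the guide RNA CPM per exon CPM was 0.0932, 0.0751, 0.177 and 0.0596 in ethanol libraries, against 0.883, 1.37, 0.871 and 0.718 in controls. No ethanol library came near a control in this ratio, ethanol replicate 2 included. The exon sums alone separated the groups, at 243, 910, 166 and 258 CPM in ethanol libraries, against 69.1, 82.0, 79.1 and 106 CPM in controls. A feature with the same CPM in every library would therefore also separate in such a ratio. The ratio thus does not show a change particular to the guide RNAs of these genes. No host exon passed when any single one of control replicates 1 to 4 was left out, although all 11 values stayed positive in each of those fits. The summed epididymal epithelium genes, to which Crisp1 gave most of the CPM, were higher in the same libraries (901 to 11610 CPM in ethanol libraries and 407 to 692 CPM in controls). The part of these genes in the exon values was not tested.

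**Figure D4:**
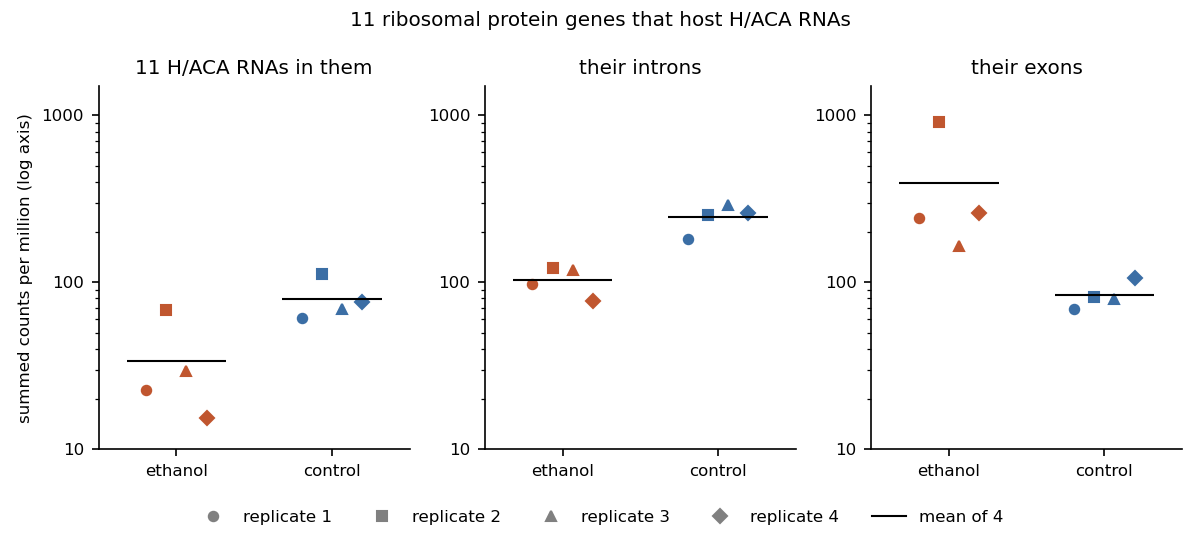
Summed CPM (shared log axis) of the 11 H/ACA RNAs located in ribosomal protein genes, of the introns and of the exons of those genes, with 1 point per library and a line at the mean of 4. Every ethanol library is below every control for the introns (77.1 to 121 CPM) and above every control for the exons (166 to 910 CPM), while for the RNAs ethanol replicate 2 (68.4 CPM) lies above control replicate 1.

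Some intron rows of the hosts were lower in ethanol sperm. Of 26 tested host intron features 7 fell and 0 rose, where 1.88% of tested intron features fell. None of the 7 passed when any single one of control replicates 1 to 4 was left out. With library totals 2 host introns fell, without ethanol replicate 2 there were 15 and without replicate 4 there were 4. Over all features, 95 of 13515 fell with library totals, 381 of 14384 without ethanol replicate 2 and 85 of 14283 without replicate 4. In the ribosomal protein genes, introns of Rpl10 (-2.15 ± 0.37), Rps2 (-1.96 ± 0.54), Rpl23 (-1.73 ± 0.41), Rpl12 (-1.43 ± 0.37) and Rps12 (-1.33 ± 0.40) fell. Each had every ethanol library below every control, as did 591 of all 5159 tested intron features. The other 2 of the 7 were Eif5 (-1.65 ± 0.37), host of Snora28, and Tpt1 (-1.45 ± 0.38), host of Snora31. Rpl10 introns had 4.70, 3.37, 6.04 and 2.77 CPM in ethanol libraries, against 13.9, 16.3, 20.2 and 25.0 CPM in controls, and ethanol replicate 2 was not high there. Summed over the 11 ribosomal protein hosts, introns had 97.1, 121, 118 and 77.1 CPM in ethanol libraries, against 182, 253, 289 and 261 CPM in controls. Of these sums, Rps12 alone gave 53.9, 57.2, 63.6 and 27.5 CPM in ethanol libraries and 105, 124, 150 and 131 CPM in controls. In the hosts of the 5 fallen Snora RNAs, the intron that holds the guide RNA had most of the gene's intron counts: 87.9% in Rpl23, 90.6% in Rpl10, 93.3% in Rps2, 92.5% in Rpl12 and 98.8% in Rpl32. In Rpsa that intron had 26.9%, and in Rps12, whose introns had the most counts, 2.04%. How reads were divided between an intron and the RNA inside it is not recorded with the counts, so intron and guide RNA values cannot be treated as separate measurements.

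Eif4a2, host of the most abundant RNA, differed from this pattern. Its introns had 239, 65.4, 87.1 and 28.5 CPM in ethanol libraries, against 35.6, 40.1, 32.5 and 54.8 CPM in controls (1.37 ± 0.55, edgeR adjusted p = 0.101). The intron that holds Snora81 contributed 78.4% of these counts, with 1537 in ethanol replicate 1, 378 in ethanol replicate 3 and at most 114 in any control. Ethanol replicate 1, which led in this intron, was below all controls for Snora81 itself. Exons of Eif4a2 had a value of 1.01 ± 0.35 with every ethanol library above every control, without passing (edgeR adjusted p = 0.0652). Over all hosts, 15 of 30 tested exon features rose and 0 fell, where 23.8% of tested mRNA exon features rose. Outside the ribosomal protein genes, the hosts that rose were Ncl, which encodes nucleolin, Eef1b2, an elongation factor subunit, Tpt1 and Cct6a. Exons of Snhg8, host of Snora24, had a value of -0.91 ± 0.49 (edgeR adjusted p = 0.207).

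The protein partners of these RNAs were scarcely seen. Of 33 genes of the H/ACA and C/D particles, their assembly, Cajal body traffic, 3′ end trimming, the stand-alone pseudouridine synthases and telomerase, 6 had enough exon counts for the test, 1 rose and 0 fell, where 23.8% of tested mRNA exon features rose. Nop10, the smallest core protein, had 5.29, 22.3, 3.58 and 7.61 CPM in ethanol libraries, against 2.09, 1.55, 2.25 and 3.89 CPM in controls. Ethanol replicate 3 was below control replicate 4 and the other ethanol libraries were above all controls (1.97 ± 0.56, edgeR adjusted p = 0.0354, and not past the threshold without ethanol replicate 2 or without any single control). Dkc1, which encodes dyskerin, had 0.519 to 1.68 CPM in ethanol libraries and at most 0.776 CPM in controls. Nhp2 reached 8.21 CPM in ethanol replicate 2 and at most 2.42 CPM in the other libraries, and Gar1 had 1.38 to 2.95 CPM in ethanol libraries and 2.25 to 2.78 CPM in controls. The other 5 tested were the exonuclease gene Parn (1.11), the 3′ tailing enzyme gene Tent4b (0.13), the synthase gene Pus10 (0.49) and the C/D core genes Nop58 (0.95) and Snu13 (1.21), all as log2 fold changes and none past the test. Telomerase RNA (Terc), an H/ACA RNA outside the Snora and Scarna names, had at most 0.294 CPM in ethanol libraries and 1.31 CPM in controls.

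Some miRNAs are cut from H/ACA RNAs, and the table lists 2 such precursors. Mature miR-664-3p had at most 0.842 CPM in ethanol libraries and 1.29 CPM in controls and was not tested. Mature miR-1291 had 0.294, 0, 1.32 and 0.692 CPM in ethanol libraries, against 2.36, 3.88, 1.75 and 2.23 CPM in controls. Every ethanol library lay below every control, at too few counts for the test. Among tested features, 94 of 226 miRNAs and 6.91% of all features were separated in this way. The hairpin row of mir-1291 had 0.881, 1.26, 0.377 and 1.56 CPM in ethanol libraries, against 1.31, 3.36, 5.49 and 3.06 CPM in controls. Its groups overlapped, as did those of the row under the precursor name, and neither row was tested. The hairpin rows of mir-664, chosen after their values were seen, had 2.20, 7.997, 4.72 and 1.73 CPM in ethanol libraries, against 7.85, 10.3, 15.7 and 11.4 CPM in controls. This hairpin fell (-1.46 ± 0.46, edgeR adjusted p = 0.0481), with ethanol replicate 2 just above the lowest control. It did not pass with DESeq2 size factors, library totals, limma-voom or a minimum count of 30, nor without any single control or without ethanol replicate 1 or 4. A separate row that lists the miRNA under the precursor name had -0.11 ± 0.94 and was listed at 0 in 1 ethanol and 1 control library.

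C/D box RNAs, the other large snoRNA class, were more abundant and had lower values in ethanol sperm as well. Of 60 tested Snord RNAs 12 fell and 0 rose, where 1.75% of all features fell, and their median log2 fold change was -0.78, against 6 of 29 and -0.93 for the H/ACA and Cajal body RNAs. Separation of the groups differed in count: 27 of 60 Snord RNAs had every ethanol library below every control, against 3 of 29 here and 6.91% of all features, a difference that was not tested. None of the 12 passed when any single one of control replicates 1 to 4 was left out. Without ethanol replicate 2, 30 Snord RNAs fell, where 381 of 14384 features did. Without replicate 4, 5 fell, where 85 of 14283 features did. Summed Snord CPM was 3839, 6176, 3269 and 1695 in ethanol libraries, against 6014, 6796, 6601 and 5750 in controls. Ethanol replicate 2 stood less far above the other ethanol libraries there than for H/ACA RNAs. H/ACA and Cajal body RNAs were 4.39%, 8.68%, 4.36% and 4.75% of the counts of both classes in ethanol libraries, against 4.32%, 7.31%, 4.48% and 5.30% in controls, so replicate 2 of each group had the highest share and the groups overlapped. When the snoRNAs were fitted alone, so that values are relative to one another, 0 of 28 H/ACA and Cajal body RNAs passed by edgeR (3 at an unadjusted p under 0.05) and their median was -0.065. In bulk RNA, fewer cells that carry these RNAs and less of them per cell cannot be told apart.

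The 16 RNAs with too few counts for the test included 5 of the 9 Scarna RNAs and 11 Snora RNAs. Scarna10, a guide for the U5 spliceosomal RNA in human, had 51 counts in all ethanol libraries and 33 in all controls. The intron of Ncapd2 that holds it had 107, 210, 44 and 31 counts in ethanol libraries, against 61, 54, 55 and 83 in controls, more than the RNA's own row, whose RefSeq model covers 71 of 325 bases. Snora52, in Rplp2, had 9 counts in ethanol libraries and 21 in controls, Snora15, in Cct6a, had 5 and 17, and Snora34, in Kansl2, had 4 and 15. For each of these 3 and for Snora73a (1 and 6 counts), every ethanol library lay below every control in CPM, as did 6.91% of all tested features. In counts, ethanol replicate 2 equalled the lowest control for Snora52 (3 counts), Snora34 (2) and Snora73a (1). The separation of these RNAs thus depends on how the libraries were scaled. Snora73a is a copy of the U17 RNA, which takes part in cutting the ribosomal RNA precursor. Scarna3a, Scarna3b, Scarna8, Snora36b, Snora43 and Snora73a had fewer than 10 counts each over all libraries.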

How the data were processed

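Small RNA of 8 sperm libraries was analysed from a single table of counts per RNA feature. The authors deposited these counts as whole numbers without normalization, as far as the file headers show. The aligner, counting rule, genome build and the unit counted (reads or molecules) are not given in the sources used here. Rows sharing both name and RNA type were added together, giving 45082 features in 15 classes. The test was the quasi-likelihood F test of edgeR 4.0.16 (R 4.3.3) on 13515 features that passed filterByExpr at a minimum count of 10, with TMM factors, a robust fit and no covariate. P-values were adjusted by Benjamini-Hochberg over those features at a threshold of 0.05. Standard errors of log2 fold changes were taken from the estimate and the root of F. The step was tested on simulated data. Errors of group means are SD over 4 libraries, and library totals ran from 3481865 to 6975180.

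The members and gene lists were chosen with earlier results of these data known. Named were all members past the threshold, the 10 most abundant, the 4 lowest p-values of each sign, every tested Scarna, listed particle genes past the threshold or otherwise the 4 H/ACA core genes, hosts of these, and miRNAs in H/ACA RNAs; other named features were chosen after their values were seen. Hosts and sequences came from GENCODE M21 (GRCm38), where all 45 members matched, 39 by RefSeq accession and 6 by symbol. Coordinates are of that reference. Chi-square statistics per degree of freedom within groups were 11.6 to 188, so all libraries were kept as replicates. Overlapping or near-identical RNAs, such as Snora73a and Snora73b, share reads in a way the table does not record. Alternatives were DESeq2 1.42.0 (its size factors, and its Wald test), library totals, limma-voom (limma 3.58.1), other filters, the replicate number as a block, libraries left out and snoRNAs alone. Python 3.11.15 was used for summaries and matplotlib 3.10.9 for plots. One host gene is not reported here by name.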

Additional observations from a re-analysis of the deposited data

Results flagged for a closer look

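In 16 of 110 groups of 4 libraries, 1 library stood apart from the other 3. Its gap to the nearest one was a larger share of the group's whole range than Dixon's critical value for 4 samples allows. Chance alone flags about 1 in 20 independent groups. The 110 groups come from the same 8 libraries and many hold related features, so these rates cannot be compared. In 13 of the 16 the library was ethanol replicate 2, as the highest. This held for Snora74a (a gap of 0.935 of the range), Scarna2 (0.881) and Snora81 (0.874). It also held for exons of Dkc1 (0.941), on 4, 8, 3 and 3 counts in ethanol replicates 1 to 4. Exons of Rpl23 (0.930), Rpl32 (0.889), Rpl12 (0.885), Rpl27a (0.872), Tcp1 (0.842) and Rpl10 (0.833) were flagged too. The last 3 were the share of counts in Snora RNAs (0.892), that in Snora and Scarna RNAs together (0.870), and the share of H/ACA and Cajal body RNAs among all snoRNA counts (0.909). The other 3 were Snora21, with ethanol replicate 4 as the lowest (0.892), Snora20, with control replicate 2 as the highest (0.890), and Rpl23 introns, with control replicate 3 as the highest (0.876).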

How the results depend on the processing

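The 6 fallen RNAs became 11 with the DESeq2 Wald test, 2 with DESeq2 size factors, 1 with library totals, 0 with limma-voom (17 at an unadjusted p under 0.05), 1 with a minimum count of 30 and 0 with snoRNAs alone. At a minimum count of 30 only 16 RNAs of the class were tested, without Scarna17, Snora65 and Snora7a. Nop10 was not tested there either. Without a count filter 9 fell, 5 of them from the 6. Leaving out 1 library gave 0 to 21. Keeping only ethanol replicates 3 and 4 gave 21 and a median of -1.88; keeping only replicates 1 and 2 gave 2 fallen and 2 risen. In the same order of alternatives, calls over all features (main 1842) were 3144, 1200, 1556, 8, 782 and 0, then 3451 without a filter, 3 to 3569 with 1 library left out, 818 with ethanol replicates 3 and 4 and 3317 with 1 and 2. C/D calls (main 12) were 26, 11, 3, 0, 8 and 0, then 0 to 30 with 1 library left out and 25 with ethanol replicates 3 and 4. Host intron calls (main 7) were 11, 7, 2, 1 and 4 under the first 5, then 0 to 15, and 11 with ethanol replicates 3 and 4. Host exon calls (main 15) were 0 with limma-voom and 0 to 17 with 1 library left out. Particle gene calls (main 1) were 0 with DESeq2 size factors, limma-voom, a minimum count of 30 and ethanol replicates 3 and 4, 4 without a filter, 5 with ethanol replicates 1 and 2, and 0 to 2 with 1 library left out. Library totals moved the median of all features to 0.25 and that of the H/ACA and Cajal body RNAs to -0.65. Fitted with snoRNAs alone, their median was -0.065.

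Same-numbered libraries deviated together in 2 pairs and not in the others (correlations 0.344, 0.210, -0.129 and -0.021). Differently numbered libraries had correlations from -0.404 to 0.385. These values cannot decide whether the numbers pair the samples, and the labels do not say. With a replicate block, 13 RNAs fell, with 3294 calls over all features, 21 C/D and 11 host intron calls, and Snora3 (-0.14) and Snora44 (-0.079) changed sign.

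Other values changed sign too. With library totals Snora20, Snora74a and Snora81 were 0.45, 0.29 and 0.25, and with snoRNAs alone 0.64, 0.37 and 0.46, where Scarna9 was 0.20 and Snora16a 0.24. With limma-voom Snora3 and Snora44 were -0.24 and -0.20, and Snora20 was 0.12 at a minimum count of 30. With ethanol replicates 3 and 4 alone Scarna2, Scarna6, Snora3 and Snora44 were -1.28, -0.74, -0.52 and -1.33, and with 1 and 2 alone Snora20, Snora74a and Snora81 were 0.54, 0.30 and 0.18. With 1 library left out, Scarna2 ran from -0.30 to 2.13, Snora20 from -1.17 to 0.25, Snora3 from -0.67 to 0.31 and Snora44 from -0.89 to 0.53. The causes were not tested. The 16 untested RNAs had at most 84 counts each and did not pass the count filter.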
